A study of Mus musculus with 6 samples.

Results

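The genes described here are the 7 cyclin-dependent kinase (CDK) inhibitors Cdkn1a, Cdkn1b, Cdkn1c, Cdkn2a, Cdkn2b, Cdkn2c and Cdkn2d, with the tumour suppressors Trp53 and Rb1 and the p53 antagonist Mdm2. They were taken by symbol from the deposited count table, where all 10 were found among 23377 genes, and all 10 passed the low-count filter. RNA-seq was made from hair follicle stem cells of C57BL/6 mice, 2 libraries labelled Ring1a/b-/- (the knockout) and 2 labelled WT, each from 3000 sorted cells copied and amplified by the SMART-seq2 method, which captures polyadenylated RNA. Either Ring1a or Ring1b serves as the catalytic subunit of PRC1, the Polycomb complex that ubiquitinates histone H2A and keeps genes of development off. The sources used here give no age. For the RNA libraries they name neither the Cre driver nor the sorting marker, nor say whether libraries came from separate animals, so p-values reflect only how far these libraries spread, which may be technical.

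CDK inhibitors are small proteins that bind cyclin-CDK complexes and slow the cell cycle. The CIP/KIP family (Cdkn1a, Cdkn1b, Cdkn1c) binds a broad range of cyclin-CDK complexes, whereas the INK4 family (Cdkn2a to Cdkn2d) binds the CDKs that partner with D-type cyclins and so keeps the retinoblastoma protein in its active, growth-restraining form. The Cdkn2a locus, a classical Polycomb target, also encodes p19Arf from another reading frame, which binds Mdm2 and thereby stabilises p53, and p53 in turn activates Cdkn1a and Mdm2.

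The promoter windows of 3 members, Cdkn2a, Cdkn2b and Cdkn1a, are shown. They run from 250 bases before to 50 bases after an annotated start in RefSeq (GRCm38.p6), and 8 of the 10 members had at least 1 window, 11 windows in all. The first pair belongs to both starts of Cdkn2a, on the minus strand: the upstream start, known as that of the Arf transcript, at chr4:89294570-89294869, and the downstream start at chr4:89282143-89282442. The third belongs to the adjacent Cdkn2b (minus strand, chr4:89310983-89311282). In these 3 windows capitals mark CpG dinucleotides. The fourth is the upstream start of Cdkn1a (plus strand, chr17:29090729-29091028), where capitals mark a match to the p53 consensus element.
Cdkn2a upstream: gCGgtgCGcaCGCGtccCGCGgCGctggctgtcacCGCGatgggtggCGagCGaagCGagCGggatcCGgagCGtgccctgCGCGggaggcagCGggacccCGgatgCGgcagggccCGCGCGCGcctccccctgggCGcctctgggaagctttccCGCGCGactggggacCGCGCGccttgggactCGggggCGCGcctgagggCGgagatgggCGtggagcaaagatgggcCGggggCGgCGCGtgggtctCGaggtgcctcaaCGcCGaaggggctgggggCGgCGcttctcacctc
Cdkn2a downstream: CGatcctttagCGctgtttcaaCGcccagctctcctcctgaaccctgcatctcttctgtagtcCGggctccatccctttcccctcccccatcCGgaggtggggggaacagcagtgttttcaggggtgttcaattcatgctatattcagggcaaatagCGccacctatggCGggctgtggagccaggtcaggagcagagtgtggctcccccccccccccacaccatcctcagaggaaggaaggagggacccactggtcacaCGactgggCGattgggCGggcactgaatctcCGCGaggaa
Cdkn2b: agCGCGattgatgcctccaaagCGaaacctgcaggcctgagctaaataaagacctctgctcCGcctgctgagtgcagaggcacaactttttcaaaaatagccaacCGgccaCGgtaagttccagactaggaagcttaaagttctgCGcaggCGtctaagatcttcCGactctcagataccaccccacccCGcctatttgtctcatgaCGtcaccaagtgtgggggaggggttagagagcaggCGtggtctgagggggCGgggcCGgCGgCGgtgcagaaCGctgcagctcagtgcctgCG
Cdkn1a upstream: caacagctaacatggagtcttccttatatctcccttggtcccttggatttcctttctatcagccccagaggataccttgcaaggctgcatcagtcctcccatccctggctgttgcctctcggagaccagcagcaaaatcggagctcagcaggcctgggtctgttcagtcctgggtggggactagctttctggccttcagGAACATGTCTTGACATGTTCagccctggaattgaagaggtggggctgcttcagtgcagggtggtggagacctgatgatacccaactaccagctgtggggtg

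The upstream Cdkn2a window holds 45 CpG dinucleotides, more than 98.1% of the 32841 RefSeq windows of 300 bases, whose median is 7. The downstream Cdkn2a window holds 12 and the Cdkn2b window 18, more than 60.4% and 70.3% of windows. The other members' windows held 35 CpG in Mdm2, 33 and 8 in the upstream and downstream windows of Cdkn2c, 30 in Cdkn1b, 23 in the downstream window of Cdkn1a, 22 in Cdkn2d, 10 in Trp53 and 2 in the upstream window of Cdkn1a. The Cdkn1a element, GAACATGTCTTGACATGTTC, matches the p53 consensus with 1 mismatch, the most allowed in a search of both strands, since the consensus reads the same on both. Such a match was found in 0.0883% of all windows, and among the members' 11 windows only in this one. Allowing a mismatch was chosen after the sequence was seen. No member's window held the E2F-type sequence TTTGGCGC or TTTCGCGC on either strand, which 0.813% of all windows hold.

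The knockout libraries were deeper, with 4844381 and 7740945 counts against 2785843 and 3056593, and levels are in CPM, read counts brought to 1 library size with TMM factors. A single count stood for 0.124 to 0.38 CPM. The targeted genes do not check the labels, since counts cover whole genes and the sources used here do not name the deleted exons. The Ring1a gene, Ring1, was at 15.5 and 18.4 CPM in knockout cells, against 31.9 and 29.4 CPM in wild-type cells, and the Ring1b gene, Rnf2, at 151 and 153 against 144 and 87.8 CPM. All 16 follicle and keratinocyte markers were detected in both genotypes, with summed levels of 3635 and 3071 CPM in knockout cells, against 3562 and 3463 CPM in wild-type cells. The sums hide differences: 5 of the 16 lay higher and 5 lower without overlap, beside 24.8% and 22.3% of all tested genes. Nfatc1 stood at 38.8 and 34 against 0 and 2.34 CPM, and Krt15 at 303 and 250 against 417 and 362 CPM. Markers of other cells were present too, with leukocyte and Merkel cell sums higher and fibroblast sums lower in both knockout libraries. Of 14 leukocyte markers the summed level was 942 and 385 CPM in knockout cells, against 177 and 183 CPM in wild-type cells, with only Cd207 at 0 in all 4 libraries. Of 8 Merkel cell markers it was 95.1 and 121 against 7.97 and 34 CPM. Of these 8, 5 lay higher and 0 lower without overlap. Among them were the keratins Krt8, at 23.2 and 49.5 against 4.56 and 20 CPM, and Krt18, at 39.4 and 41 against 3.42 and 5.34 CPM. Atoh1, Krt20 and Chga were near 0, at 0 to 1.67 CPM, with overlapping groups. Of 10 fibroblast markers the sum was 448 and 334 against 843 and 888 CPM. Of 10 endothelial and mural markers it was 195 and 201 against 279 and 326 CPM (Emcn at 0 in all 4), and of 9 melanocyte markers 231 and 141 against 202 and 200 CPM (Sox10 at 0 in all 4). Most of the endothelial and mural sum came from Cspg4, at 179 and 136 against 102 and 138 CPM, and Acta2, at 9.89 and 46.7 against 158 and 138 CPM, while the pericyte receptor gene Pdgfrb went the other way, at 3.23 and 17.4 against 0 and 1.33 CPM. Dcn was the largest part of the fibroblast sum in each library, at 272 and 159 against 593 and 430 CPM. Of the 10 fibroblast markers 2 lay lower and 2 higher without overlap, beside 22.3% and 24.8% of all tested genes. The higher were Pdgfra, at 6.66 and 12.2 against 0.38 and 6.34 CPM, and Twist2, at 0.404 and 1.37 against 0 and 0 CPM. Wild-type replicate 2 stood apart from the other 3 libraries in part of the endothelial markers. Pecam1 had 35 counts there against 0 to 2, and Cdh5 27 against 0 to 1. Kdr had 39 against 1 to 3, and Vwf 23 against 0 to 1. Tek, of the same list, went the other way, with 35 counts in wild-type replicate 1 against 13 in wild-type replicate 2. Wild-type replicate 2 also held the most of the collagen gene Col1a2, 139 CPM against 5.98 to 13.5 CPM elsewhere. Dcn and Fbln1 were instead highest in wild-type replicate 1, Fbln1 at 169 against 63.7 CPM in wild-type replicate 2. These markers, and Nfatc1, Krt15, Pdgfra, Twist2, Atoh1, Krt20 and Chga, were named after their values were seen. The plot of fold changes without each library in turn shows the members other than Cdkn2a without wild-type replicate 2, and the bounds for Cdkn2a are in the text.

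Comparing the knockout with the wild type asks which of these brakes on the cell cycle differ between cells labelled Ring1a/b-/- and WT. Cdkn2a was absent from both wild-type libraries and present in both knockout libraries, and Cdkn1c was about an order of magnitude higher in the knockout, while the other 8 differed by less than 1 on the log2 scale. None of the 10 passed edgeR's quasi-likelihood test at a Benjamini-Hochberg adjusted p under 0.05 over all 13134 genes tested. The background was 0.0609% of tested genes called, 8 in all, of which 7 were higher (0.0533%) and 1 lower (0.00761%). At an unadjusted p under 0.05, 2 of the 10 members passed, both higher, where 16.6% of all tested genes did (8.47% higher). DESeq2 called 2 members, Cdkn2a and Cdkn1c, where it called 12.5% of genes, 6.26% as higher, and limma-voom called 0, with 2 at an unadjusted p under 0.05. The edgeR count of 8 genes fell to 1 and 0 when knockout replicate 1 or 2 was left out and was 32 and 60 when wild-type replicate 1 or 2 was, and no member was called in any of these fits.

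**Figure D1:**
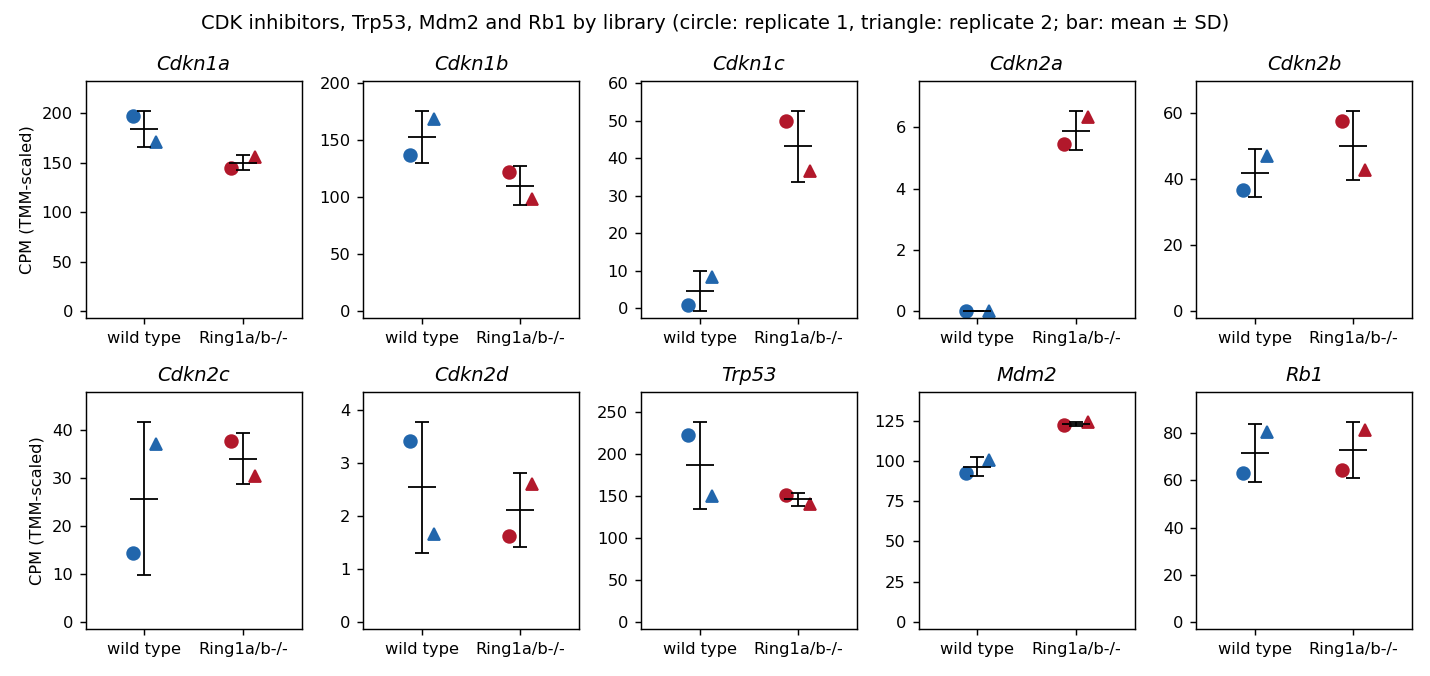
Level of each gene in CPM (linear axis, TMM-scaled) in the 2 wild-type (blue) and 2 knockout (red) libraries, circles for replicate 1 and triangles for replicate 2, with mean ± SD. Cdkn2a is at 0 in both wild-type libraries and Cdkn1c is highest in both knockout libraries, whereas the groups of Cdkn2b, Cdkn2c, Cdkn2d, Trp53 and Rb1 overlap.

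Among the INK4 genes, Cdkn2a encodes p16Ink4a and p19Arf, and its row in the table counts both transcripts together. Knockout libraries held 27 and 51 of its counts (5.45 and 6.35 CPM), wild-type libraries 0 and 0, so the groups did not overlap. With 3 counts over the wild-type libraries as the floor (0.533 CPM), the knockout mean of Cdkn2a, taken as exact, was 11.1-fold above it. The 95% counting interval of the pooled ratio, which includes counting error in the knockout, began lower, at 8.95-fold. At the knockout mean of 5.9 ± 0.635 CPM (SD, n = 2), 15.5 and 17.7 counts would have been expected in the wild-type libraries, a value that covers counting error only. Its adjusted p was 0.165 in edgeR and 0.0249 in DESeq2. The knockout libraries alone carried Cdkn2a past the count filter, so it could only be higher there. Against the floor, the knockout mean was 11.9-fold or 10.2-fold higher with knockout replicate 1 or 2 left out. It was 5.89-fold or 5.18-fold higher with wild-type replicate 1 or 2 left out, when the floor covers fewer counts. The counting interval began at 9.34-fold or 7.76-fold without knockout replicate 1 or 2, and at 4.76-fold or 4.19-fold without wild-type replicate 1 or 2. Cdkn2a and Cdkn2b have similar coding sequence, and the sources used here do not say how reads that match both were counted. The wild-type libraries held 97 and 141 counts of Cdkn2b and none of Cdkn2a.

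Cdkn2b, which encodes p15Ink4b, a mediator of growth arrest by TGF-beta, lies beside Cdkn2a and did not share its pattern. It stood at 57.5 and 42.7 CPM in knockout cells, against 36.8 and 47.1 CPM in wild-type cells, and the groups overlapped. The log2 fold change was 0.25 ± 0.40 (SE), with a 95% interval of -0.67 to 1.18 and an edgeR adjusted p of 0.849. The predicted gene Gm12610 overlaps its span in RefSeq and is not analysed here. Of the other genes beside this locus, Mtap, an enzyme of methionine salvage, stood at 115 and 131 against 153 and 93.4 CPM, and Klhl9, a ubiquitin ligase adaptor, at 155 and 120 against 188 and 179 CPM. Dmrta1 was near 0 throughout, at 0.334 to 1.62 CPM, and was not tested. Klhl9 lay lower in the knockout without overlap, as did 22.3% of all tested genes. Of the 2 neighbours tested, edgeR called 0, beside 0.0609% of all tested genes.

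Cdkn2c, which encodes p18Ink4c, stood at 37.8 and 30.4 CPM in the knockout. The wild-type libraries differed from each other, at 14.4 and 37 CPM,, and the groups overlapped. The log2 fold change of Cdkn2c was 0.40 ± 0.61 (SE; interval -0.996 to 1.80; edgeR adjusted p = 0.839), and leaving out wild-type replicate 1 or 2 gave -0.12 or 1.22. Cdkn2d, which encodes p19Ink4d, had the fewest counts of the genes seen in both genotypes, 8 and 21 in knockout libraries against 9 and 5. These are 1.62 and 2.61 against 3.42 and 1.67 CPM, with overlapping groups and an interval of -3.31 to 2.81 around a log2 fold change of -0.25. A change of several-fold in Cdkn2d in either direction was not detectable at this depth. Summed over the 4 INK4 genes, the level was 102 and 82 CPM in knockout cells, against 54.7 and 85.8 CPM in wild-type cells, so the sums overlapped.

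Cdkn1c, an imprinted CIP/KIP gene that encodes p57Kip2, had the largest difference among members counted in every library. It stood at 49.9 and 36.5 CPM in knockout cells, against 0.759 and 8.34 CPM in wild-type cells, 247 and 293 counts against 2 and 25. Both knockout libraries lay above both wild-type libraries, which differed from each other by more in ratio than the knockout pair did. The log2 fold change was 3.22 ± 0.97 (SE), a 9.32-fold difference, with an interval of 1.01 to 5.43. The edgeR adjusted p was 0.167 and the DESeq2 adjusted p 0.0029. The wild-type libraries set the size: the log2 fold change was 2.37 without wild-type replicate 1, while with wild-type replicate 2 left out only 2 counts are left in the wild type and the ratio was 54.8, with a 95% counting interval of 15.1 to 453. It was 2.98 and 3.42 without knockout replicates 1 and 2. With no low-count filter, Cdkn1c alone of the 10 members passed edgeR's test (adjusted p = 0.00506).

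The sums of leukocyte and Merkel cell markers, given above, were higher in the same libraries as Cdkn1c and Cdkn2a. Not every marker followed: 7 of 14 leukocyte and 5 of 8 Merkel cell markers lay higher without overlap, and 0 lower. Over all tested genes these shares were 24.8% and 22.3%. The part of these cells in either difference was not tested. The leukocyte sum was 942 CPM in knockout replicate 1 and 385 CPM in knockout replicate 2, while Cdkn2a was at 5.45 and 6.35 CPM and Cdkn1c at 49.9 and 36.5 CPM in the same libraries. Genes of most similar profile were sought by the Euclidean distance between log2(CPM + 1) values centred over the 4 libraries. For Cdkn1c the nearest were Pde9a, a cGMP phosphodiesterase (distance 0.141), Fcrls, an Fc receptor-like gene of macrophages (0.232), and Fam167a (0.426). Pde9a stood at 25 and 20.7 CPM in knockout cells, against 0 and 4.34 CPM in wild-type cells, and Fcrls at 23.4 and 16.8 against 0 and 3.34 CPM. For Cdkn2a the nearest were Entpd3, an ectonucleotidase (0.102), Coch, an extracellular protein best known from the inner ear (0.124), and Foxd2, a forkhead transcription factor (0.135). Each of these 3 was at 0 in both wild-type libraries, with knockout levels between 5.05 and 7.22 CPM. Profiles over 4 libraries are coarse, and many genes at 0 in the wild type can come near to Cdkn2a.

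Cdkn1c lies in an imprinted cluster whose long noncoding RNA, Kcnq1ot1, is known to silence its neighbours on the paternal chromosome. Of 12 genes listed in this and the adjoining Igf2-H19 domain, 10 were tested. Of the 10, 4 lay higher and 3 lower without overlap, beside 24.8% and 22.3% of all tested genes. In edgeR 1 of them was called, beside 0.0609% of all tested genes. It was Igf2, a fetal growth factor, at 141 and 187 CPM against 2.66 and 4.34 CPM (log2 fold change 5.53 ± 0.39 (SE), edgeR adjusted p = 0.00467). The Igf2 call was lost without knockout replicate 2 (adjusted p = 0.0537) and in limma-voom (0.156). Kcnq1ot1 itself stood at 1620 and 1337 CPM in knockout cells, against 906 and 1339 CPM in wild-type cells, and the groups overlapped. Phlda2, an imprinted growth inhibitor of the placenta, stood at 23.4 and 28.9 against 12.2 and 8.68 CPM without being called. H19 stood at 50.7 and 12.3 against 3.42 and 56.4 CPM, so replicates differed more than genotypes. The tetraspanin Cd81 stood at 167 and 170 against 236 and 190 CPM. These 4 genes beside Igf2 were named after their values were seen. The other 5 tested were not called. The median log2 fold change of the 10 was 0.50, against 0.03 over all tested genes. Leaving out knockout replicate 1 gave 0.05 and leaving out wild-type replicate 2 gave 0.80.

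The other CIP/KIP genes were lower in the knockout libraries without passing the test. Cdkn1a, which encodes p21, the best known p53 target among the inhibitors, stood at 145 and 156 CPM in knockout cells, against 197 and 171 CPM in wild-type cells. Both knockout libraries lay below both wild-type libraries. For Cdkn1a the log2 fold change was -0.29 ± 0.20 (SE), with an interval of -0.74 to 0.16 and an edgeR adjusted p of 0.527. Cdkn1b, which encodes p27, a marker of quiescence, stood at 122 and 98.2 CPM against 137 and 169 CPM, again without overlap. Its log2 fold change was -0.47 ± 0.23 (SE; interval -1.004 to 0.06; edgeR adjusted p = 0.356). The intervals of both reach no further than a log2 fold change of 0.16 on the higher side. Summed over Cdkn1a, Cdkn1b and Cdkn1c, the level was 317 and 290 CPM in knockout cells, against 335 and 348 CPM in wild-type cells. Over all 7 inhibitors it was 419 and 372 against 389 and 434 CPM, and the groups overlapped.

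Of the 10 members, 5 had groups that did not overlap, 3 higher (Cdkn1c, Cdkn2a, Mdm2) and 2 lower (Cdkn1a, Cdkn1b) in the knockout. Over all tested genes 47% did not overlap, 24.8% higher and 22.3% lower, so the members' share is near the background.

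**Figure D2:**
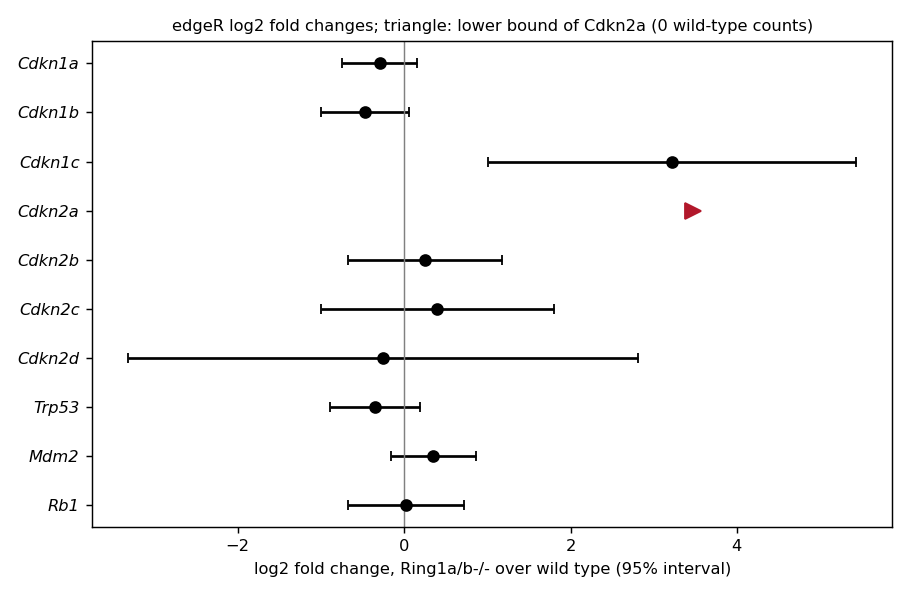
Log2 fold change of the knockout over the wild type from edgeR for each gene other than Cdkn2a, with its 95% interval. For Cdkn2a the triangle (3.47) is the bound against a floor of 3 wild-type counts, with the knockout mean taken as exact. The interval of Cdkn1c lies above 0 before adjustment (1.01 to 5.43), those of the other 8 fitted genes include 0, and the widest belongs to Cdkn2d.

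Trp53, which encodes the transcription factor p53, stood at 151 and 141 CPM in knockout cells, against 223 and 150 CPM in wild-type cells, where wild-type replicate 2 lay just below knockout replicate 1. The log2 fold change was -0.35 ± 0.24 (SE; interval -0.89 to 0.19; edgeR adjusted p = 0.521), and leaving out wild-type replicate 1 or 2 gave -0.03 or -0.63. Mdm2, the ubiquitin ligase that marks p53 for destruction and is itself a p53 target, stood at 122 and 124 CPM in knockout cells, against 92.3 and 100 CPM in wild-type cells. The groups of Mdm2 did not overlap, and its replicates were the closest together of the members seen in every library. The log2 fold change of Mdm2 was 0.35 ± 0.22 (SE; interval -0.16 to 0.86; edgeR adjusted p = 0.496), from 0.30 to 0.40 over the other fits. The direct p53 targets Cdkn1a and Mdm2 lay on opposite sides of 0, neither past the test. RNA level does not measure p53 protein, which Mdm2 controls after translation.

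Rb1, which encodes the retinoblastoma protein that the INK4 inhibitors act through, stood at 64.4 and 81.3 CPM in knockout cells, against 63 and 80.4 CPM in wild-type cells. The groups of Rb1 overlapped almost wholly, with a log2 fold change of 0.02 ± 0.30 (SE), an interval of -0.67 to 0.72 and an edgeR adjusted p of 0.989. Its sign turned without knockout replicate 2 (-0.17) and without wild-type replicate 1 (-0.13). Lpar6, a receptor gene inside the Rb1 span, named after its values were seen, stood at 88.2 and 117 against 144 and 102 CPM, and since the sources used here do not say whether counting used strand, reads of such overlapping genes may not be told apart.

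**Figure D3:**
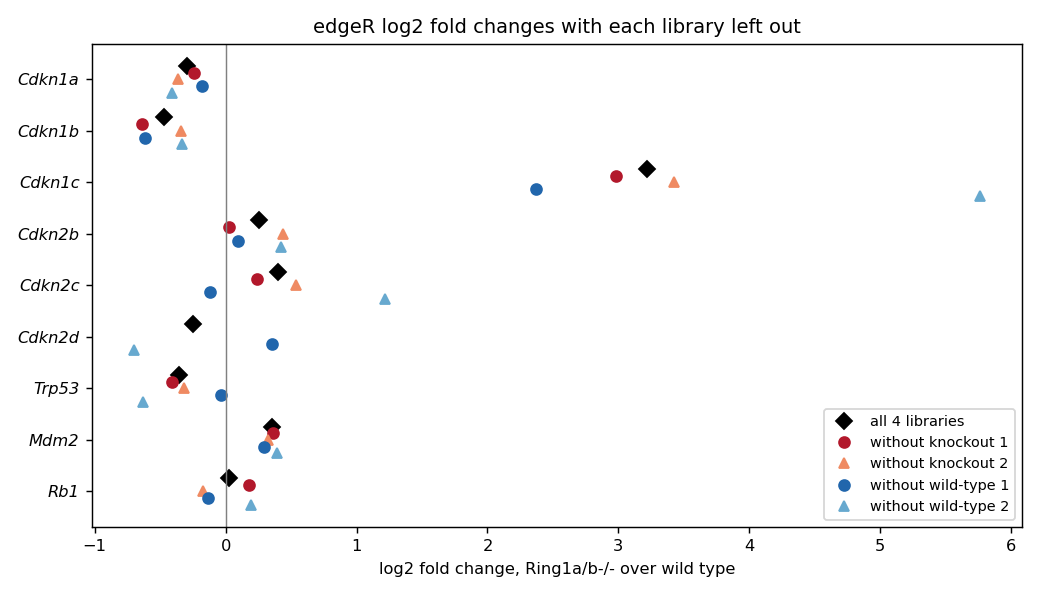
Log2 fold change of the knockout over the wild type from edgeR with all 4 libraries (diamonds) and without each library in turn (red and orange for knockout replicates 1 and 2, dark and light blue for wild-type replicates 1 and 2). Cdkn1c stays above 0 but ranges from 2.37 to 5.76, the last resting on 2 wild-type counts, while Cdkn2c, Cdkn2d and Rb1 change sign. Cdkn2d did not pass the count filter without either knockout library, and Cdkn2a is left out because it has no wild-type counts.

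In the deposited comparison, the authors' deposited table marked Cdkn1c and Cdkn2a as higher in the knockout, with adjusted p of 0.00291 and 0.025, and none of the other 8 members. That table marked 8.64% of the genes with an adjusted p, 7.35% as higher and 1.29% as lower. Its name points to a cut on log2 fold change behind these marks, which was not checked. The shares are therefore not comparable with those of DESeq2 above, which rest on adjusted p alone. The deposited comparison comes from the same counts and is no independent check. For Cdkn1b, the next by p, the authors' deposited table gives a log2 fold change of -0.48 and an adjusted p of 0.137.

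The machinery on which the inhibitors act was described from lists of related genes. Among 20 cyclins, CDKs and their partners, all tested, 0 were called by edgeR, with 7 lower and 0 higher at an unadjusted p under 0.05, where 8.16% of all tested genes were lower at that level. DESeq2 called 7 lower and 0 higher, where it called 6.21% of all genes lower. The log2 fold change was below 0 for 18 of the 20, while 52.3% of all tested genes were above 0, and the median was -0.37 (-0.52 to -0.41 with single libraries left out). Cdk4, the INK4 target that partners D-type cyclins, stood at 259 and 208 CPM in knockout cells, against 438 and 316 CPM in wild-type cells. Ccnd1, a D-type cyclin, stood at 305 and 297 against 414 and 429 CPM, and Ccnd2 at 767 and 631 against 985 and 854 CPM. The groups of Cdk4, Ccnd1 and Ccnd2 did not overlap, with edgeR adjusted p of 0.18, 0.202 and 0.329. DESeq2's calls were Ccna2, Ccnb1, Ccnb2, Ccnd1, Cdk1, Cdk4 and Cks1b, which include the cyclins and the kinase of mitotic entry.

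Among 20 mitosis genes 0 were called by edgeR, 5 were lower at an unadjusted p under 0.05 (8.16% of all tested genes) and 5 were called lower by DESeq2 (6.21% of all genes). The fitted change was below 0 for all 20, with a median of -0.38 (-0.45 to -0.27 with single libraries left out). In both knockout libraries 13 of the 20 lay below both wild-type libraries, beside 22.3% of all tested genes. Mki67, the proliferation marker Ki-67, stood at 525 and 543 CPM against 772 and 807 CPM, Top2a, a topoisomerase of dividing cells, at 594 and 486 against 707 and 793 CPM, and the kinetochore gene Cenpf at 247 and 287 against 318 and 364 CPM. Among 20 S phase genes 0 were called by edgeR, 8 were lower at an unadjusted p under 0.05 and 6 were called lower by DESeq2, against the same 8.16% and 6.21%. Their median was -0.40, and leaving out wild-type replicate 1 or 2 gave -0.17 or -0.59. The ribonucleotide reductase genes Rrm2 and Rrm1 stood at 210 and 232 against 391 and 312 CPM and at 227 and 211 against 394 and 302 CPM. Slbp, which binds histone messages, stood at 212 and 191 against 289 and 253 CPM. In bulk RNA, fewer cells of a type and less RNA per cell cannot be told apart. Genes are not independent replicates, and genes of these lists share the libraries.

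The Rb family and E2F list holds the transcription factors that Rb1 restrains and the complex of its relatives. It gave 0 edgeR calls among 16 (0.0609% of all tested genes), 0 at an unadjusted p under 0.05 (16.6%), and a median of 0.04. Tfdp2, an E2F partner, stood at 137 and 148 against 174 and 183 CPM, its relative Tfdp1 at 83.6 and 141 against 106 and 91.4 CPM, and Rbl1, which encodes the Rb relative p107, at 111 and 88.6 against 124 and 86.8 CPM. DESeq2 also called 0 of this list, where it called 12.5% of all genes. Of these 3, only Tfdp2 had groups that did not overlap.

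Of 32 p53 targets listed beside Cdkn1a and Mdm2, 30 were tested and edgeR called 0, with 1 higher and 4 lower at an unadjusted p under 0.05. These 5 of 30 are a share near the 16.6% of all tested genes (8.47% higher, 8.16% lower). The median was 0.24 (0.21 to 0.37 with single libraries left out), and 21 of the 30 had a fitted change above 0, beside 52.3% of all tested genes. Both knockout libraries lay above both wild-type libraries for 12 of the 30 and below them for 8. Over all tested genes these shares were 24.8% and 22.3%. DESeq2 called 1 higher, Bbc3, and 3 lower, Perp, Sfn and Rps27l, where it called 12.5% of all genes. Perp, a desmosomal protein also induced by p53 in apoptosis, stood at 477 and 350 CPM in knockout cells, against 802 and 650 CPM in wild-type cells. Sfn, the epithelial 14-3-3 sigma that also marks differentiating keratinocytes, stood at 294 and 222 against 477 and 405 CPM. Trp53inp1 stood at 347 and 365 against 358 and 266 CPM, with overlap. Bbc3, the apoptosis inducer Puma, stood at 13.9 and 14.2 against 0 and 2.34 CPM. It was named after its values were seen, as was the ribosomal protein gene relative Rps27l, at 113 and 83.2 against 164 and 158 CPM. Perp and Sfn are also known as genes of keratinocyte identity under control of the p53 relative Trp63. Trp63 stood at 369 and 361 against 538 and 409 CPM (edgeR adjusted p = 0.373), and its part in the levels of Perp and Sfn was not tested.

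Of 18 regulators of p53, all tested, 0 were called by edgeR or DESeq2 and 0 stood at an unadjusted p under 0.05, with a median of -0.05. Over all tested genes the shares were 0.0609%, 12.5% and 16.6%. In 4 of the 18 both knockout libraries lay above both wild-type libraries and in 6 below, beside 24.8% and 22.3% of all tested genes. Beside Trp63, Ep300, an acetyltransferase coactivator, stood at 226 and 218 against 220 and 224 CPM, and Usp7, a deubiquitinase of Mdm2 and p53, at 222 and 226 against 211 and 226 CPM, each with overlapping groups.

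The regulators of the inhibitors themselves gave 0 calls in edgeR among 19 tested of 20, 4 higher at an unadjusted p under 0.05 (8.47% of all tested genes), and a median of 0.20 (0.08 to 0.25 with single libraries left out). Kdm6b, which removes a Polycomb mark and is known to activate Cdkn2a, stood at 212 and 160 against 245 and 246 CPM. Foxo1, a factor that activates Cdkn1b, stood at 224 and 182 against 141 and 212 CPM, and Myc at 151 and 182 against 178 and 176 CPM. DESeq2 called 3 higher (6.26% of all genes), Rnf123, Tbx3 and Twist1, named here after their values were seen. Twist1 and Tbx3 are developmental factors known to repress Cdkn2a. Twist1 stood at 9.29 and 5.98 CPM in knockout cells, against 0 and 0 CPM, and Tbx3 at 13.7 and 12.4 against 0 and 1 CPM. The knockout libraries alone carried Twist1 past the count filter, so it could only be higher there, and both counts of higher genes above include it. Tbx3 had only 0 and 3 counts in the wild type. Rnf123, a ubiquitin ligase subunit that targets p27, stood at 96.1 and 92.7 against 56.2 and 62.1 CPM.

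Genes often read as signs of senescence, the lasting arrest tied to Cdkn2a and Cdkn1a, gave 0 calls in edgeR or DESeq2 and 0 at an unadjusted p under 0.05 among 11 tested of 16. Over all tested genes the shares were 0.0609% in edgeR, 12.5% in DESeq2 and 16.6% at an unadjusted p under 0.05. Of the 11, 2 lay higher and 1, Lmnb1, lower without overlap between groups, beside 24.8% and 22.3% of all tested genes. Il6 and Mmp10 were at 0 in all 4 libraries. Igfbp3 stood at 214 and 168 against 98.3 and 171 CPM, Igfbp7 at 49.5 and 50 against 42.5 and 87.1 CPM, and Lmnb1, a lamin that falls in senescent cells, at 30.3 and 36.1 against 49 and 61.1 CPM. The median was 0.03, and leaving out wild-type replicate 1 or 2 gave -0.76 or 0.21.

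**Figure D4:**
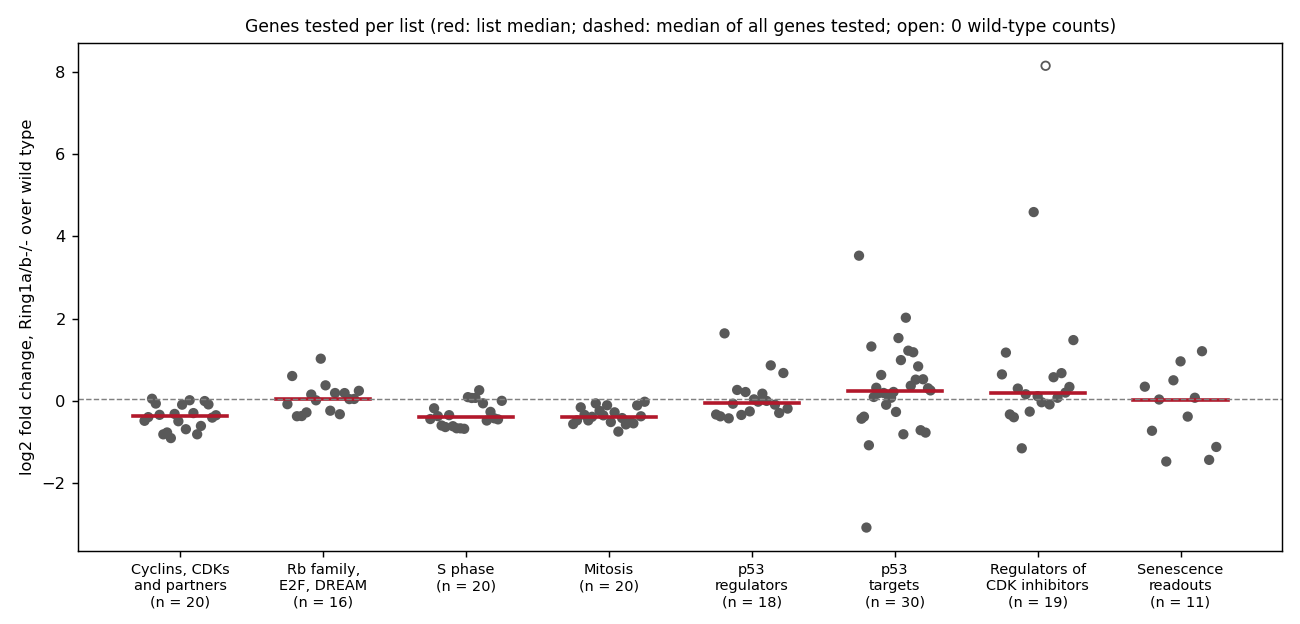
Log2 fold change of the knockout over the wild type for every tested gene of 8 lists around the inhibitors, with the list median (red) and the median of all tested genes (dashed, 0.03). The medians of cyclins and CDKs (-0.37), S phase (-0.40) and mitosis genes (-0.38) lie below the dashed line, all 20 mitosis genes lie below 0, and the open circle is Twist1, whose height depends on its absence from the wild type.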

How the data were processed

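RNA-seq of 4 libraries was analysed. The submitters' processing notes name TopHat2 2.1.1, Bowtie 1.2.2, Picard 1.62, HTSeq 0.7.2 and DESeq2 with build mm9, without settings, annotation or use of strand. The authors deposited whole-number counts per gene symbol with no normalization. Per the file headers, their comparison table holds a log2 fold change and its error, a mean normalized signal per genotype, the Wald score, and p-values. The test used edgeR 4.0.16 in R 4.3.3 (filterByExpr, TMM, robust quasi-likelihood fit, genotype as the only term). It was also run on simulated counts with the same dispersion for all genes, simpler than these data, and no result here rests on that run. Alternatives used DESeq2 1.42.0 and limma 3.58.1. SE is the fold change over the root of F, and intervals are 95% on the t scale of that test. Floors are 3 counts. PCR copies being no independent molecules, floors and counting intervals cover only counting error. The genes named are all members and, per list, genes called (up to 4) or else the 3 of highest mean CPM, with marker lists of other cells given as sums. A few genes outside this rule were named after their values were seen, as the text says. Members and lists were chosen with earlier results of these data known. An mm9 annotation was not used here, so Ring1b peaks were not tied to these genes. Transcript lengths were not used, so levels are compared across libraries, within a gene or within a sum over the same genes. Sequences were read in Python 3.11.15.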

Additional observations from a re-analysis of the deposited data

How the results depend on the processing

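With 2 libraries per genotype, the number of genes called over the whole table, 8, was 1 with DESeq2 size factors in edgeR, 802 with no low-count filter, 1 with a filter of 1 CPM in 2 libraries, 1801 in DESeq2 and 0 in limma-voom (1945 at an unadjusted p under 0.05). It ran from 0 to 60 with single libraries left out. Of the 10 members 1 was called with no low-count filter and 2 in DESeq2, and 0 in each fit with a library left out, where the lone library of a genotype is assumed to vary like the other. Of the related genes on the lists, 1 was called, against 12 with no filter, 26 in DESeq2, 0 in limma-voom and 0 to 1 with single libraries left out. No cause of these differences was tested.

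Replicate numbers are shared between genotypes, but nothing ties the libraries of a number together, and same-numbered libraries deviated with a correlation of -0.14 over 13134 genes. With the replicate block edgeR called 416 genes, 1 member (Cdkn1c, adjusted p = 0.0371) and 8 list genes. With crossed pairing, chosen after seeing the data, it called 8 genes, 0 members and 1 list gene.

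Refitted were 54 genes: the members, the genes named from the lists, Ring1, Rnf2 and Lpar6. Genes named only as cell type markers and the genes of most similar profile were not refitted. Among them 14 log2 fold changes turned sign with a single library left out, none of them called. Their ranges were -0.17 to 0.19 for Rb1, -0.12 to 1.22 for Cdkn2c, -0.70 to 0.35 for Cdkn2d (without each wild-type library only), -0.029 to 0.011 for Ep300, -0.24 to 0.038 for Myc, -0.25 to 0.51 for Tfdp1 and -0.34 to 0.20 for Rbl1. They were -0.33 to 0.41 for Mtap, -0.0037 to 0.065 for Usp7, -0.057 to 0.50 for Foxo1, -0.027 to 0.43 for Trp53inp1, -0.80 to 0.21 for Igfbp7, -1.28 to 3.16 for H19 and -0.50 to 0.020 for Lpar6. Ep300 was also at 0.0086 with no filter. Levels per kilobase were planned and not run, since transcript lengths were not used.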
